A study of Mus musculus with 37 samples.

Results

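The 10 genes described here belong to the Serpina cluster, a tandem array of serine protease inhibitor (serpin) genes on mouse chromosome 12. They are Serpina1a, Serpina1b, Serpina1d, Serpina1e, Serpina3k, Serpina3m, Serpina3n, Serpina3g, the pseudogene Serpina4-ps1 and Serpina6. They were taken by symbol from a count table of 24421 genes, and each had a row in all 37 liver libraries and passed the filter on low counts. The count table held 25 clade A serpins in all, and the other 15 are used below only for comparison. The livers came from C57BL/6 mice of 2 months of age. There were 6 wild-type (WT) males, 9 males and 6 females with STAT5B-Y665F, 4 males and 6 females with STAT5B-Y665H, and 6 WT females. Both changes replace the same tyrosine in the SH2 domain of STAT5B, the transcription factor that carries growth hormone signals in hepatocytes, and both are known from T cell leukaemias. Y665F has been described as raising and Y665H as lowering STAT5B activity in immune cells. The labels do not say whether mutant mice carried 1 or 2 copies of the mutant allele, nor whether the mutation was confined to a cell type. They also do not state whether each library came from a different mouse, so p-values measure the spread between libraries.

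Most secreted serpins trap a protease with an exposed reactive centre loop, which the protease cuts and which then locks the enzyme in an inactive complex. The Serpina1 genes of mice are recent copies of the gene for alpha-1 antitrypsin, the hepatocyte-made inhibitor of neutrophil elastase, and that loop is among the parts in which they differ. The Serpina3 genes are a second expanded group related to alpha-1 antichymotrypsin. Serpina6 makes corticosteroid-binding globulin, a serpin that carries corticosterone in plasma and does not inhibit proteases. Rodent serpin genes of this array were among the early liver genes studied for their response to growth hormone, whose pulses differ between males and females.

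Depth was 49141951 to 73937726 gene counts in the 19 male libraries and 24388434 to 40864173 in the 18 female libraries. These ranges do not overlap, so depth and sex cannot be told apart. Rows that name no gene held between 32.4% and 49.9% of all counts of a library. All 10 hepatocyte markers were detected in every group. Their summed level was higher in Y665F, at 162091 to 178488 CPM (counts per 1000000 gene counts) against 103700.2 to 113569 in WT males and at 233965 to 272912 against 136459 to 162123 in WT females. Of the 10, 4 rose and 4 fell in Y665F males and 4 rose and 3 fell in Y665F females, and the albumin gene Alb went from between 5.54% and 6.44% of gene counts in WT males to between 10.5% and 12.2% in Y665F males. The part of this move in the members' values was not tested. In 3 male libraries, Y665F replicate 2 and Y665H replicates 2 and 3, the acute-phase gene Saa1 was at 874, 907 and 694 CPM. In the other males of these groups Saa1 was between 14.8 and 54.0 CPM. Results that rest on these 3 libraries are given with and without them. Without them the Y665H male group holds replicates 1 and 4 only, so a call lost there can also come from fewer libraries. All CPM are scaled by the trimmed mean of M values (TMM). Differences are log2 fold changes with their standard error (SE) from edgeR's quasi-likelihood test, and "called" means a Benjamini-Hochberg adjusted p under 0.05 over the 15152 genes tested. Within a sex both mutants were set against the same WT libraries, so those comparisons share their controls.

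The array lies between positions 103646630 and 104414329 of chromosome 12 for these 10 genes (GRCm38, GENCODE M21). Serpina6 stands at chr12:103646630-103657212 on the minus strand. Next come Serpina1b (chr12:103728156-103830373), Serpina1d (chr12:103763594-103773592), Serpina1a (chr12:103853589-103863562) and Serpina1e (chr12:103946931-103958975), all on the minus strand. Serpina4-ps1 (chr12:104080649-104086724), an unprocessed pseudogene related to the kallistatin gene, is on the plus strand. So are Serpina3g (chr12:104236245-104241939), Serpina3k (chr12:104338486-104346144), Serpina3m (chr12:104338486-104394257) and Serpina3n (chr12:104406729-104414329). In this annotation the span of Serpina1b contains Serpina1d, and exons of Serpina3m overlap those of Serpina3k on the same strand. The annotation the authors counted against is not given in the sources used here, and how these overlaps were counted is not known.

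The Serpina1 copies are so alike that only part of each transcript can be told from the others. Over the 1242 coding columns that all 5 copies share without a gap, 86 differed between at least a pair of them. Over these columns the pairs of copies were 96.3% (Serpina1b and Serpina1e, Serpina1d and Serpina1e) to 98.5% (Serpina1a and Serpina1c) identical. The 90 bases where the copies differ most encode the reactive centre loop region and carry 20 of the differing columns. They are shown because this is where reads best separate the genes, and because the loop sets which protease each inhibitor meets. They start at coding base 1172 in Serpina1a and at coding base 1103 in the other copies, are written 5′ to 3′ on the coding strand from GRCm38, and have capitals where the 5 copies are not all the same.
Serpina1a: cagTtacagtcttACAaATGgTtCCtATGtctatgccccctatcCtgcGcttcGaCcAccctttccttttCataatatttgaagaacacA
Serpina1b: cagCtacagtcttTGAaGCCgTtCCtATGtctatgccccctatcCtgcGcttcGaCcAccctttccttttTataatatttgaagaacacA
Serpina1c: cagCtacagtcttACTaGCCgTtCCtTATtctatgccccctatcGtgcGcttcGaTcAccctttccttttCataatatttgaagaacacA
Serpina1d: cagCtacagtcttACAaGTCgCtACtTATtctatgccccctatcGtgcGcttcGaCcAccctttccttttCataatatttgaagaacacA
Serpina1e: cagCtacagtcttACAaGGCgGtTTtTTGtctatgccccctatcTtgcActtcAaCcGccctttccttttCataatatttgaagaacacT
Of all 100-base windows of a transcript, the share found in no annotated transcript of another gene was 85.2% for Serpina1e, 79.4% for Serpina1b, 70.7% for Serpina1d and 50.1% for Serpina1a. For Serpina1c, which is no member but is needed for the sum of the copies, it was 41.5%. The shares were 95.4% for Serpina3g, 95.1% for Serpina3k, 93.9% for Serpina3m and 99.8% for Serpina3n, and 100% for Serpina4-ps1 and Serpina6. Counts of the Serpina1 genes are therefore uncertain where reads could fall to another copy, and the smallest shares were those of Serpina1c and, among the members, Serpina1a.

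**Figure D1:**
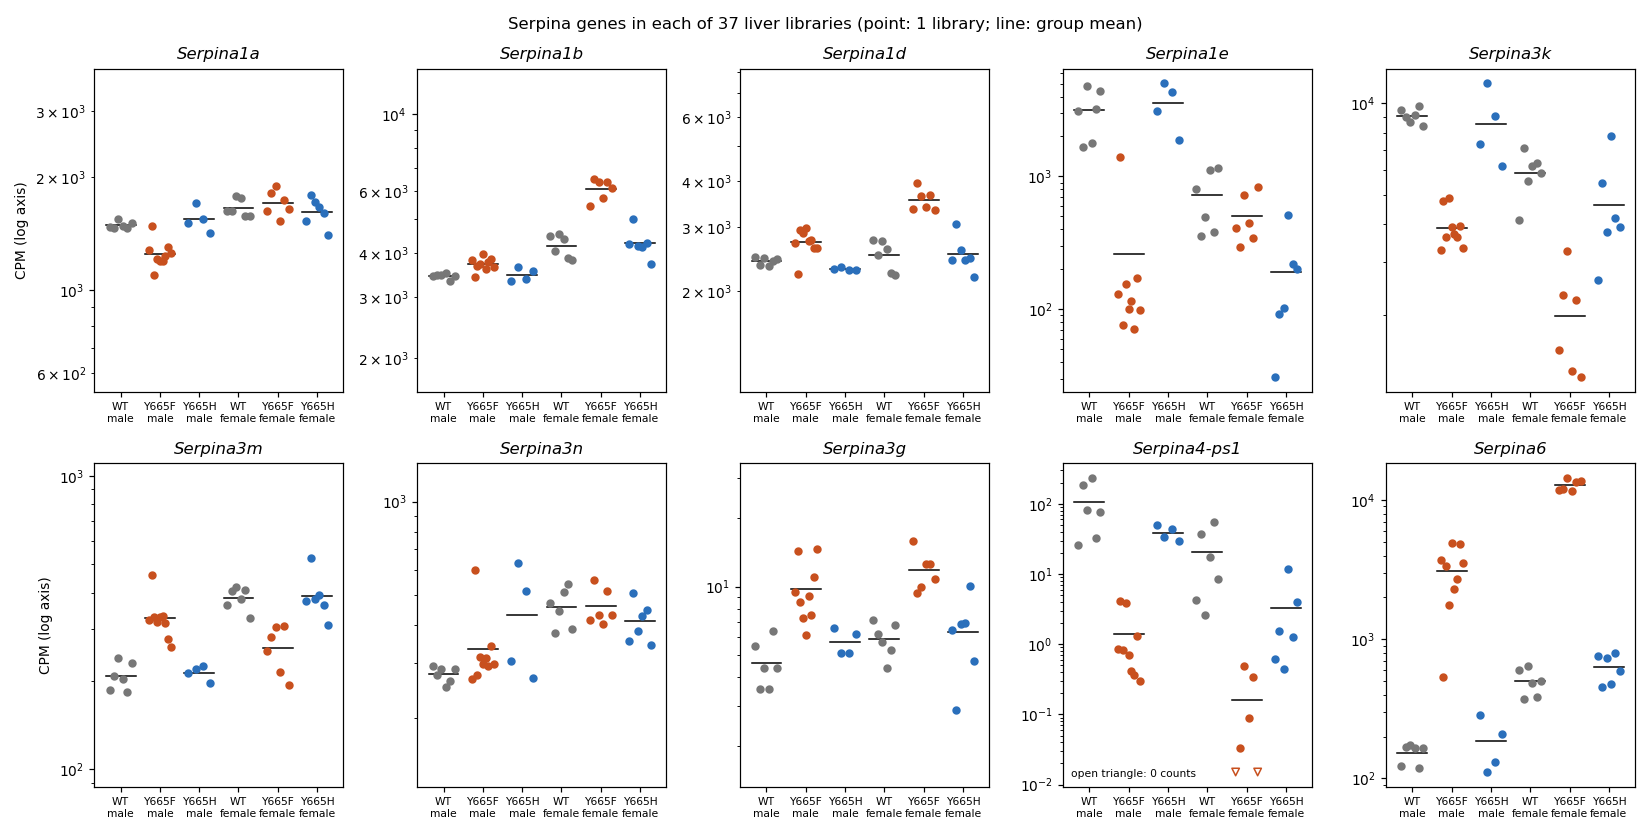
CPM of the 10 genes in each of the 37 libraries on log10 axes, 1 panel per gene, with the 6 groups on the x axis, 1 point per library, a line at each group mean and open triangles for libraries with 0 counts. Every Y665F library lies above every WT library of its sex for Serpina6 and below every one for Serpina4-ps1 and Serpina3k, while Serpina1e falls to a low level in 8 of the 9 Y665F male libraries.

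In Y665F livers, Serpina6, the mRNA of corticosteroid-binding globulin, was 20.1-fold higher than in WT in males and 25.8-fold higher in females. The pseudogene Serpina4-ps1 fell to at most 4.11 CPM in every Y665F library. The alpha-1 antitrypsin copy Serpina1e fell in males, and the Serpina3 gene Serpina3k fell in both sexes. In males, 8 of the 10 genes were called, 4 higher and 4 lower, where 52.5% of all tested genes were called, 27.2% higher and 25.3% lower. In females, 7 were called, 4 higher and 3 lower, where 41.0% of all tested genes were called, 17.8% higher and 23.3% lower. The members' median log2 fold change was 0.14 in males and 0.03 in females, against −0.01 and −0.02 over all tested genes, since rises and falls were mixed. The libraries of the Y665F and WT groups did not overlap for 5 of the 10 genes in males and 7 in females, where 26.4% and 19.9% of all tested genes did not overlap.

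Serpina6 was the member that rose most. In WT males it was at 123, 169, 175, 164, 119.7 and 166 CPM. In Y665F males it was at 3736, 534, 3359.7, 1756, 4895, 2304, 2689.7, 4837 and 3531 CPM. Even the lowest of these, replicate 2 with its high Saa1, stood above the highest WT male. In WT females it was at 607, 374, 641, 483, 387 and 503 CPM. In Y665F females it was at 11836, 12085, 14383, 11550.5, 13569 and 13776 CPM. No Y665F female was near any WT female, and the Y665F females formed a tight group while the Y665F males were spread widely. The difference was 4.33 on the log2 scale in males (SE 0.316, 20.1-fold, adjusted p = 9.41e-14) and 4.69 in females (SE 0.330, 25.8-fold, adjusted p = 7.16e-14). The sexes did not differ detectably in this effect (male minus female −0.36, SE 0.383, adjusted p = 0.514). In Y665H it was at 287, 111, 130.4 and 209 CPM in males and at 756, 456, 728, 476, 794 and 593 CPM in females. These ranges overlapped WT, with differences of 0.27 in males (SE 0.315, adjusted p = 0.647) and 0.35 in females (SE 0.284, adjusted p = 0.473). Without the 3 libraries of high Saa1 the Y665H male difference was 0.69 (adjusted p = 0.150).

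Beside Serpina6, 12 genes of glucocorticoid handling and response were examined. In Y665F males 4 of them rose and 4 fell, and in Y665F females 4 rose and 3 fell, with median log2 fold changes of −0.21 and 0.01. Of all tested genes, 52.5% were called in these males and 41.0% in these females. Fkbp5, an immunophilin of the glucocorticoid receptor complex that the receptor itself induces, rose by 2.05 in males and 0.89 in females on the log2 scale. Tat, tyrosine aminotransferase, rose by 0.98 in females. Zbtb16, a transcription factor induced by glucocorticoids, fell by 1.96 and 1.03 in males and females. The female call of Zbtb16 was lost without WT replicate 5 (−0.81, adjusted p = 0.0551). Srd5a1, a steroid 5-alpha reductase, fell by 1.47 and 0.60. Nr3c1, the glucocorticoid receptor itself, was lower in Y665F females (−0.17, adjusted p = 0.00586, and 0.0821 with only the groups compared in the fit) and passed the test in none of the 3 remaining comparisons. Fkbp5 and Zbtb16, both induced by glucocorticoids, moved in opposite directions. The genes named here are the extremes of the list in each direction, and receptor activity was not tested.

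Serpina4-ps1 fell most, from a level that already varied widely in WT. Its WT male libraries were at 25.8, 187, 80.6, 232, 33.0 and 77.5 CPM and its WT female libraries at 4.26, 37.2, 2.60, 17.3, 55.0 and 8.38 CPM. The ratio of the highest to the lowest WT library was thus large in both sexes. In Y665F males it was at 0.859, 4.11, 0.840, 3.91, 0.705, 0.415, 0.362, 1.29 and 0.304 CPM. In Y665F females the 6 libraries had 0, 1, 13, 3, 11 and 0 counts, which is at most 0.483 CPM. A count of 0 allows up to 3 counts, or 0.105 and 0.134 CPM in the libraries concerned, for counting error only. All Y665F libraries were below all WT libraries of their sex. The fitted difference was −6.24 in males (SE 0.653, 75.8-fold lower, adjusted p = 6.09e-10) and −7.00 in females (SE 1.12, adjusted p = 5.05e-06), and −7.64 without Y665F female replicate 3.

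In Y665H Serpina4-ps1 was lower by less. Males were at 49.9, 33.8, 43.1 and 29.2 CPM, inside the WT male range (log2 difference −1.44, SE 0.697, adjusted p = 0.197). Females were at 0.610, 1.54, 0.450, 11.7, 1.26 and 4.04 CPM, with replicates 4 and 6 inside the WT female range and the other 4 below it. The female difference was called at −2.66 (SE 0.705, adjusted p = 0.0195). It was not called without WT female replicate 5 (−2.09, adjusted p = 0.0747), without Y665H female replicate 2 (adjusted p = 0.0559), with limma-voom (adjusted p = 0.0681) or with only the groups compared in the fit (adjusted p = 0.127). Without Y665H female replicate 4 it was −3.72.

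Among the copies Serpina1a to Serpina1e, Serpina1e changed most in Y665F males. WT males were at 3125, 1663, 4829, 1783, 3228 and 4386 CPM. Y665F males were at 130.3, 1411, 75.7, 155, 101, 116, 70.8, 172 and 98.8 CPM. All 9 lay below the lowest WT male, and replicate 2, which had high Saa1, stood apart from the other 8. The difference in males was −3.61 (SE 0.562, 12.2-fold lower, adjusted p = 1.59e-06), and −4.78 (adjusted p = 1.84e-11) without replicate 2. The fold thus depends on that library, and whether its acute-phase state bears on Serpina1e was not tested. WT females were already low, at 809, 355, 493, 1111, 381 and 1167 CPM, and Y665F females overlapped them at 407, 296, 719.7, 445, 343 and 826 CPM. The female difference was −0.51 (SE 0.596, adjusted p = 0.517). The Y665F effect was larger in males than in females by −3.11 (SE 0.813, adjusted p = 0.00423), and by −4.32 (adjusted p = 1.04e-06) without the 3 libraries.

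In Y665H Serpina1e was near WT in males and lower than WT in most females, without passing the test. Y665H males were at 3108, 5037, 4308 and 1871 CPM, close to the range of WT males, and were not called (0.18, SE 0.662). Their 2 highest values were the libraries with high Saa1, and without them the difference was −0.36 (adjusted p = 0.819). Y665H females were at 30.8, 91.3, 102, 509, 217 and 199.7 CPM, and all but replicate 4 lay below every WT female. The difference was −1.91 (SE 0.615) with an adjusted p of 0.0502 from edgeR, just outside the threshold, and it was called with DESeq2 (adjusted p = 0.0261) and limma-voom (adjusted p = 0.0133). The difference between the sexes in the Y665H effect was 2.08 (SE 0.889, adjusted p = 0.158).

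In Y665F males Serpina1b, Serpina1d and Serpina1a changed by less than Serpina1e. Serpina1b was between 3332 and 3504 CPM in WT males and between 3419.5 and 3976 CPM in Y665F males, an overlap, with a difference of 0.11 (SE 0.0559, adjusted p = 0.0874, and 0.0269 with only the groups compared in the fit). In females it rose from between 3832 and 4547 CPM to between 5440.2 and 6509 CPM, with no overlap (0.54, SE 0.0612, adjusted p = 7.12e-09). Serpina1d was between 2345 and 2484 CPM in WT males and between 2222 and 2971 CPM in Y665F males, where replicate 2 was the lowest (0.17, SE 0.0649, adjusted p = 0.0263). That call was lost when any 1 of the 6 WT males, or Y665F replicate 5, was left out, and with total-count scaling or the share of counts naming no gene as a covariate. In females Serpina1d rose from between 2211 and 2761 CPM to between 3334 and 3956 CPM (0.50, SE 0.0709, adjusted p = 5.66e-07). Both copies were thus raised in Y665F females in every library.

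Serpina1a was lower in Y665F males, at 1098 to 1483 CPM against 1459.7 to 1548 CPM in WT (−0.25, SE 0.0582, adjusted p = 0.00044). Only replicate 2 reached the WT range. In females it was between 1532 and 1899 CPM against 1579 and 1780.0 CPM in WT and was not called (0.04, SE 0.0641, adjusted p = 0.613). The Y665F effect on each of these 3 copies was lower in males than in females. The difference between the sexes was −0.30 for Serpina1a (SE 0.0867, adjusted p = 0.0102, and −0.24 with adjusted p = 0.119 when the share of counts naming no gene was a covariate), −0.43 for Serpina1b (SE 0.0825, adjusted p = 0.000177) and −0.33 for Serpina1d (SE 0.0957, adjusted p = 0.00917). Including Serpina1e and Serpina3m, 5 of the 10 genes had a Y665F effect that differed between the sexes, where 27.6% of all tested genes did, and 4 with that covariate. None of the 3 copies was called in Y665H of either sex.

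Within the summed counts of the 5 Serpina1 copies, WT males had 21.4% ± 7.12 of Serpina1e (SD, n = 6), while Y665F males had 2.46% ± 3.90 (SD, n = 9). The Y665F male median was 1.20% and the highest library, replicate 2, was at 12.8%. In females the share was 6.15% ± 2.98 in WT, 3.56% ± 1.46 in Y665F and 1.75% ± 1.50 in Y665H (SD, n = 6 each). Y665H males were at 23.9% ± 7.01 (SD, n = 4). The share of Serpina1b went from 23.9% in WT males to 37.4% in Y665F males, and that of Serpina1d from 16.8% to 27.4%. Serpina1c, another alpha-1 antitrypsin copy, went from 27.6% to 20.1%. The share of Serpina1a went from 10.3% to 12.5% although its level was called lower, so a larger share of the pool does not mean a higher level.

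The sum of the 5 copies moved less than Serpina1e. It averaged 14473 CPM in WT males, 9960 CPM in Y665F males and 14643 CPM in Y665H males, and 11564, 14189 and 10903 CPM in WT, Y665F and Y665H females. Its log2 difference in Y665F was −0.54 (SE 0.0686) in males and 0.30 (SE 0.0759) in females. In Y665H it was 0.02 (SE 0.0848) and −0.08 (SE 0.0759). A read that fell to the wrong copy would leave this sum as it is. Reads that aligned to more than 1 place are among the rows naming no gene, where WT males had 24.7% ± 2.65 of all counts (SD, n = 6) and Y665F males 21.7% ± 1.03 (SD, n = 9), and their part in these values was not tested.

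**Figure D2:**
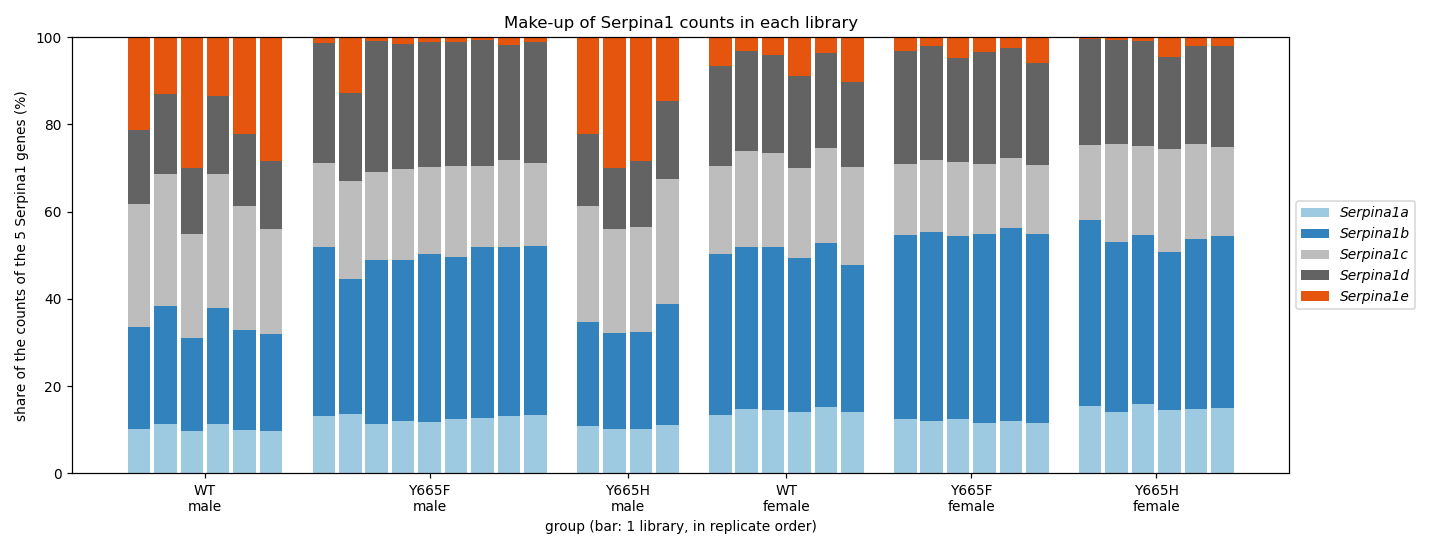
Share, in percent, of each of the 5 Serpina1 copies in their summed counts, as 1 stacked bar per library in the 6 groups. The Serpina1e segment averages 21.4% in WT males and 23.9% in Y665H males but 2.46% in Y665F males, where replicate 2 stands out at 12.8%, and 1.75% to 6.15% in the 3 female groups.

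Serpina3k, the mouse contrapsin gene and an inhibitor of trypsin-like proteases, was the most abundant member per kilobase of transcript in WT males. Its 6 WT males were between 8379.5 and 9811 CPM (median 9073) and its 9 Y665F males between 3273 and 4852 CPM (median 3706). WT females were between 4119.8 and 7113 CPM (median 6043) and Y665F females between 1252 and 3252 CPM (median 1895). The groups did not overlap in either sex. The fall was −1.22 in males (SE 0.181, 2.33-fold lower, adjusted p = 6.60e-07) and −1.56 in females (SE 0.206, 2.95-fold lower, adjusted p = 1.51e-07). In Y665H it was at 7312, 11626, 9079 and 6188 CPM in males and between 2614 and 7768 CPM in females. Neither was called (−0.09, adjusted p = 0.855, and −0.35, adjusted p = 0.284). Without the 3 libraries of high Saa1 the male difference was −0.44 (adjusted p = 0.469). The sum of 11 Serpina3 rows followed its most abundant gene, with −1.07 (SE 0.160) in Y665F males and −1.30 (SE 0.181) in Y665F females.

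Serpina3m, a neighbouring copy related to alpha-1 antichymotrypsin, changed in opposite directions in the sexes. It rose from between 184 and 239 CPM in WT males to between 261 and 459 CPM in Y665F males. It fell from between 327 and 419.6 CPM in WT females to between 194 and 308 CPM in Y665F females. No library of either mutant group reached the WT range of its sex. The differences were 0.65 (SE 0.107, adjusted p = 3.73e-06) and −0.57 (SE 0.116, adjusted p = 0.000166). They differed from each other by 1.22 (SE 0.157, adjusted p = 3.38e-07), and by 1.11 (adjusted p = 6.04e-07) without the 3 libraries of high Saa1. In Y665H it was at 197 to 224 CPM in males and 310.0 to 524 CPM in females and was not called (0.04 and 0.03). Its exons overlap those of Serpina3k, so the levels of both genes are uncertain.

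Serpina3n, a secreted acute-phase inhibitor of granzyme B, was highest in the male libraries with high Saa1. WT males were between 251 and 294 CPM. Y665F males were at 267, 599, 276, 314, 298, 312, 294, 339.9 and 299 CPM and were not called (0.27, SE 0.153, adjusted p = 0.140). Y665H males were at 306, 634, 516 and 269 CPM and were called (0.64, SE 0.184, adjusted p = 0.0262). The 599, 634 and 516 CPM belong to the 3 libraries with high Saa1. Without these libraries the Y665H male difference was 0.04 (adjusted p = 0.911) and the Y665F male difference 0.10 (adjusted p = 0.348). The Y665H male call was also lost when Y665H replicate 2 or 3 or WT replicate 4 or 5 alone was left out (0.39 to 0.62). In females it was between 376 and 543 CPM in WT, 402 and 559.6 CPM in Y665F and 344 and 507 CPM in Y665H, with no call (0.01 and −0.15).

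Serpina3n was the only member called in Y665H males, where 8.40% of all tested genes were called. Other acute-phase genes moved in the same comparison: 11 of 26 listed genes rose in Y665H males, and 3 without the 3 libraries. In Y665F males 18 rose and 2 fell, and without the 3 libraries 15 rose and 2 fell. In Y665F females 6 rose and 1 fell. Of all tested genes, 27.2% were called higher in Y665F males and 17.8% in Y665F females. In Y665H females edgeR, DESeq2 and limma-voom called 0 of the 26, and 1 had an unadjusted p under 0.05 with edgeR. Saa2, a serum amyloid gene, was at 774, 646 and 500 CPM in the 3 libraries and at 24.9 CPM or less in the other males of these groups. Lcn2, lipocalin 2, was at 256, 81.0 and 91.0 CPM in them. In Y665F replicate 2 Serpina1a, Serpina1e, Serpina3m, Serpina3n and Serpina4-ps1 were the highest of the 9 Y665F males, while Serpina1b, Serpina1d and Serpina6 were the lowest.

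Serpina3g, also named Spi2A, encodes an intracellular inhibitor of cathepsins made mainly in lymphocytes and macrophages, and it was the least abundant member per kilobase in WT males. WT males were at 5.51, 3.54, 4.40, 3.56, 6.39 and 4.39 CPM. Y665F males were at 9.44, 14.3, 8.53, 7.29, 6.16, 9.07, 7.49, 11.1 and 14.6 CPM. Only replicate 5 fell inside the WT range. WT females were at 7.12, 6.21, 5.69, 4.38, 5.28 and 6.81 CPM and Y665F females at 15.9, 9.38, 9.97, 12.5, 12.5 and 10.8 CPM, with no overlap. The difference was 1.08 in males (SE 0.192, adjusted p = 1.41e-05) and 1.01 in females (SE 0.214, adjusted p = 0.000254). In Y665H it was 0.31 in males (adjusted p = 0.432) and 0.11 in females (adjusted p = 0.790).

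Markers of immune cells moved with Serpina3g. The summed CPM of 9 T and NK cell markers was between 2.71 and 4.65 in WT males and between 6.16 and 14.3 in Y665F males, where 8 of the 9 rose. In females it was between 3.90 and 4.63 in WT and between 7.63 and 9.98 in Y665F, where all 9 rose. All 6 B and plasma cell markers rose in both sexes. All 10 Kupffer cell and macrophage markers rose in Y665F males. In Y665F females edgeR, DESeq2 and limma-voom called 0 of them, and 1 had an unadjusted p under 0.05 with edgeR. Of 22 genes of the interferon-gamma response, which includes inducible class II genes such as Cd74, 20 rose in Y665F males and 9 in Y665F females. Of all tested genes, 27.2% were called higher in Y665F males and 17.8% in Y665F females. Summed CPM of 8 stellate cell and fibroblast markers was also higher in Y665F males, at 458 to 668 against 356 to 422 in WT. In females these sums overlapped, at 451 to 603 against 473 to 557. In whole liver, more cells of a type and more RNA per cell cannot be told apart, and the part of immune cells in the rise of Serpina3g was not tested.

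**Figure D3:**
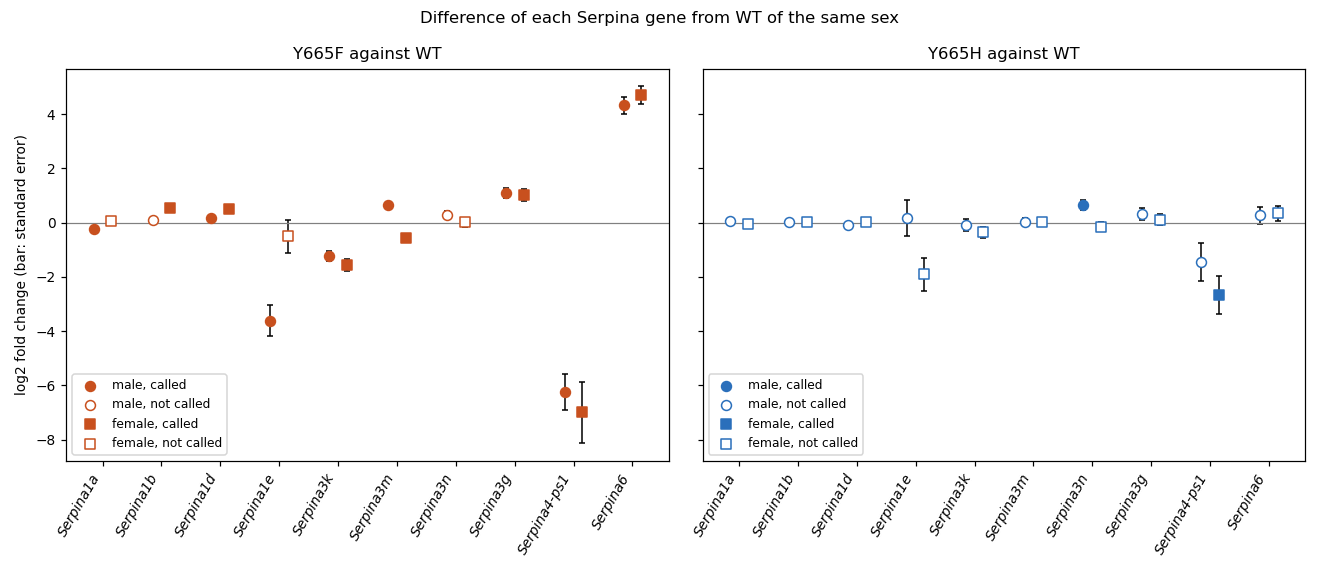
log2 fold change against WT of the same sex for the 10 genes, with bars for the standard error, in a panel for Y665F and a panel for Y665H; circles are males, squares are females, and filled points were called by edgeR. In Y665F, Serpina6 lies above 4 and Serpina4-ps1 below −6 in both sexes, while in Y665H Serpina3n in males and Serpina4-ps1 in females are the only filled points.

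Fewer members were called in Y665H than in Y665F, although single Y665H libraries often lay outside the WT range. In Y665H females 1 of the 10 genes was called, Serpina4-ps1, where 7.50% of all tested genes were called, and no gene had groups without overlap (1.59% of all tested genes). In Y665H males Serpina1d alone had groups that did not overlap, at 2284 to 2328 CPM against 2345 to 2484 CPM in WT, where this held for 12.5% of all tested genes. Its difference was −0.07 (SE 0.0792, adjusted p = 0.621). Medians over the 10 genes were 0.05 in males and −0.01 in females, against 0.01 and 0.00 over all tested genes. No member's Y665H effect was called as different between the sexes by edgeR, where 5.24% of all tested genes were. At an unadjusted p under 0.05 there were 2 such members with edgeR, and DESeq2 called 1 and limma-voom 0.

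Set directly against each other, the mutants differed in 8 of the 10 genes in males, where 41.7% of all tested genes differed, and in 8 in females, where 56.5% differed. Serpina6 was lower in Y665H by 16.7-fold in males (log2 difference −4.06) and 20.3-fold in females (−4.34). Serpina4-ps1 was higher in Y665H by 4.80 in males and 4.34 in females (adjusted p = 0.00578 in females). The female call was lost with limma-voom (adjusted p = 0.182) and without Y665H replicate 4 (3.28, adjusted p = 0.0515), and the value was 4.99 without Y665F replicate 3. Serpina3k was higher in Y665H by 1.14 and 1.21, and Serpina3g lower (−0.77 and −0.90). Serpina1e was higher in Y665H males by 3.79 (13.8-fold) but lower in Y665H females (−1.40, adjusted p = 0.0480). The male difference of Serpina1e was 4.96 without Y665F replicate 2 and 4.45 without all 3 libraries of high Saa1. This female call was lost when Y665F replicate 1, 3, 4 or 6 or Y665H replicate 1, 2, 3, 5 or 6 was left out (−1.18 to −1.46). It was also lost with no filter on low counts, with the replicate number as a block (adjusted p = 0.0501), with total-count scaling and with the share of counts naming no gene as a covariate (−1.12, adjusted p = 0.129). The remaining calls were Serpina1a (0.31), Serpina1d (−0.24) and Serpina3m (−0.62) in males and Serpina1b (−0.52), Serpina1d (−0.49) and Serpina3m (0.59) in females. In males without the 3 libraries of high Saa1, Serpina3g was no longer called (−0.53, adjusted p = 0.158).

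In WT livers 8 of the 10 genes differed between males and females, where 49.7% of all tested genes did. Serpina1e was higher in males by 2.14 (SE 0.619, adjusted p = 0.00448), Serpina4-ps1 by 2.34 (SE 0.631, adjusted p = 0.00240) and Serpina3k by 0.63 (adjusted p = 0.00967). Serpina6 was lower in males (−1.71, SE 0.291, adjusted p = 1.05e-05), as were Serpina3m (−0.88, adjusted p = 1.22e-07), Serpina3n (−0.72, adjusted p = 0.000584) and Serpina1b (−0.29, adjusted p = 0.000205). Serpina1a was lower by little (−0.16, adjusted p = 0.0416). That call was lost with size-factor and total-count scaling, with thinning, and when WT male replicate 1, 2, 4, 5 or 6 or WT female replicate 2, 3 or 4 was left out (−0.13 to −0.15). With the share of counts naming no gene as a covariate, which also differs between the sexes, Serpina1e (0.90, adjusted p = 0.578), Serpina4-ps1 (1.96, adjusted p = 0.239), Serpina6 (−0.67, adjusted p = 0.370), Serpina3k (0.45, adjusted p = 0.414), Serpina1b (−0.18, adjusted p = 0.243) and Serpina1a (−0.24, adjusted p = 0.143) were not called.

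In Y665F livers 7 of the 10 genes differed between the sexes, where 43.1% of all tested genes did. Serpina6 kept its female excess (−2.07, adjusted p = 4.06e-08) although both sexes had risen. Serpina1e was no longer higher in males: its difference was −0.97 (SE 0.536, adjusted p = 0.146), and −2.14 (adjusted p = 3.11e-05) without replicate 2, the only library of high Saa1 in this comparison. With limma-voom it was called (−1.69, adjusted p = 0.00603). Serpina3m, lower in WT males than in WT females, was higher in Y665F males than in Y665F females (0.34, adjusted p = 0.00997), a call kept without replicate 2 alone (0.26, adjusted p = 0.0275) and lost in the fit without all 3 libraries of high Saa1 (0.23, adjusted p = 0.0540). Serpina4-ps1, at 4.11 CPM or less in all of these libraries, was not called (3.09, SE 1.39, adjusted p = 0.0696), though it was called with DESeq2 (adjusted p = 0.000327), with only the groups compared in the fit (adjusted p = 0.00903), with the replicate number as a block (adjusted p = 0.0353) and with total-count scaling (adjusted p = 0.0409). In Y665H 6 of the 10 genes differed between the sexes, where 30.9% of all tested genes did. Serpina1e was higher in males by 4.22 (SE 0.704, adjusted p = 2.62e-05), Serpina4-ps1 by 3.56 (adjusted p = 0.000433) and Serpina3k by 0.89 (adjusted p = 0.00244), and Serpina6 was lower (−1.78, adjusted p = 0.000146). Without the 3 libraries of high Saa1 the Serpina3k difference in Y665H was not called (0.56, adjusted p = 0.135). With the covariate Serpina3k (0.75, adjusted p = 0.123), Serpina4-ps1 (3.21, adjusted p = 0.0580) and Serpina1b (−0.23, adjusted p = 0.0931) were not called in Y665H. Serpina1b, at −0.30 in Y665H, was not called with only the groups compared in the fit either (−0.26, adjusted p = 0.0781). The difference of Serpina4-ps1 was 4.62 without Y665H female replicate 4.

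**Figure D4:**
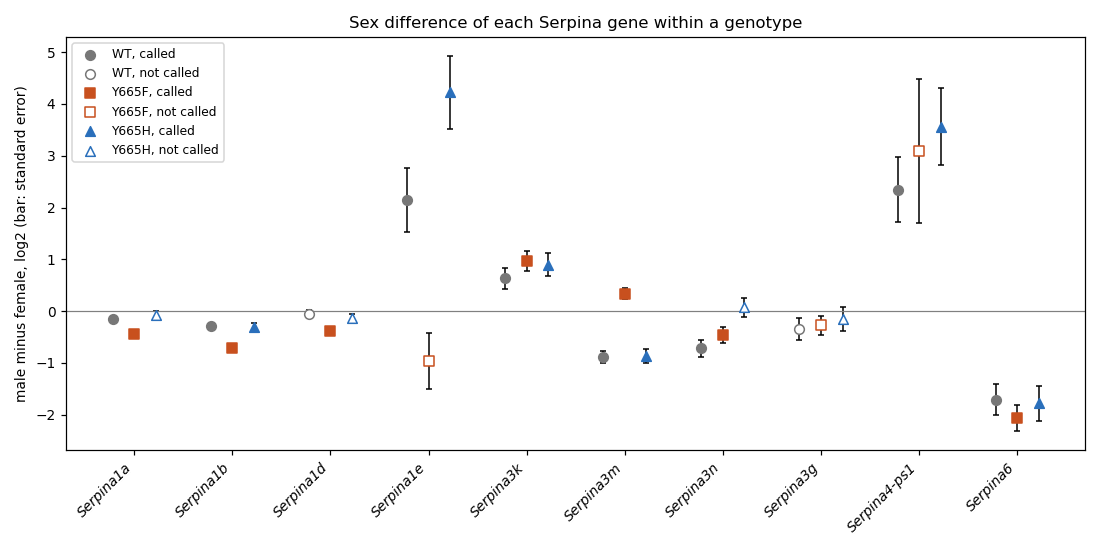
log2 difference, male minus female, of the 10 genes in WT (circles), Y665F (squares) and Y665H (triangles) livers, with bars for the standard error and filled points where edgeR called the difference. Serpina1e lies at 2.14 in WT and 4.22 in Y665H but at −0.97 in Y665F, and Serpina3m changes from −0.88 in WT to 0.34 in Y665F.

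Per kilobase of transcript, the order of the members changed with genotype. In WT males Serpina3k was highest at 4414 CPM per kb and overlapped no other member, ahead of Serpina1e at 2012 and Serpina1b at 1953, which overlapped each other. In Y665F males Serpina1b (2112), Serpina1d (1953), Serpina6 (1914) and Serpina3k (1891) shared the top, each overlapping the next. In Y665F females Serpina6 was highest at 8017 CPM per kb with no overlap, ahead of Serpina1b at 3464. In WT females Serpina3k (2853) and Serpina1b (2382) overlapped, and in Y665H females Serpina1b (2423) and Serpina3k (2241) did. At the other end stood Serpina3g or Serpina4-ps1 in every group. Together the 10 genes made up 2.17% of gene counts in WT males, 1.60% in Y665F males and 2.16% in Y665H males, and 1.61%, 2.47% and 1.42% in WT, Y665F and Y665H females.

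Promoter windows (250 bases before to 50 after the start site, RefSeq, GRCm38.p6) were found for 6 of the members and are shown where copies with near-identical sequence changed differently. Those of Serpina3k, Serpina3m, Serpina4-ps1 and Serpina6 were not used here. Serpina1e fell 12.2-fold in Y665F males while Serpina1b was not called there, yet a stretch before their start sites differed in 6 of 200 aligned columns, 4 with different bases and 2 with a gap. The stretch lies at different distances from the RefSeq starts: it runs from −200 to −1 in Serpina1b and from −250 to −53 in Serpina1e, so the last 52 bases before the Serpina1e start were not compared. In the GENCODE annotation used above, the minus-strand spans begin further upstream, at 103830373 for Serpina1b and 103958975 for Serpina1e. Sequence before those starts was not compared. Both are on the minus strand, Serpina1b at chr12:103738190-103738389 and Serpina1e at chr12:103956950-103957147, with differing columns in capitals.
Serpina1b: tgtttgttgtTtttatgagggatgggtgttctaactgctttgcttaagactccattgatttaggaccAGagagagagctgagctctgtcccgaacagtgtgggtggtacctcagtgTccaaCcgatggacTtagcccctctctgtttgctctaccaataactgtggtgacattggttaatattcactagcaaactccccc
Serpina1e: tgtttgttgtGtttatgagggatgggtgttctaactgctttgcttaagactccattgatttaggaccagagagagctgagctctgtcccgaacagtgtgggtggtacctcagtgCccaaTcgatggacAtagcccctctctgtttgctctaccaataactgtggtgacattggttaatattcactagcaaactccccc

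The STAT consensus TTCNNNGAA, which reads the same on both strands, was in 2726 of the 32851 windows, or 8.30%. Of the 6 members with a window, Serpina3g had it and Serpina1a, Serpina1b, Serpina1d, Serpina1e and Serpina3n did not. It was also in the windows of 4 of the 12 other clade A serpins that have one. The 41 bases around each match follow, with the match in capitals and the place of its first base counted from the start site, because Serpina3g and several of these neighbours rose in Y665F.
Serpina3g: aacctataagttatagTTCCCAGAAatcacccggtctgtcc
Serpina3f: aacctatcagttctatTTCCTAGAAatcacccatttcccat
Serpina3i: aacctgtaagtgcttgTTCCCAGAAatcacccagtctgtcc
Serpina11: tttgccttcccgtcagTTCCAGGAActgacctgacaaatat
Serpina1f: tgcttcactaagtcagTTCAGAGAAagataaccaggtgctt
They lie at chr12:104236098-104236138, plus strand, position −33 (Serpina3g), chr12:104214407-104214447, plus, −121 (Serpina3f), chr12:104263004-104263044, plus, −102 (Serpina3i), chr12:103989984-103990024, minus, −51 (Serpina11) and chr12:103695602-103695642, minus, −97 (Serpina1f). In Y665F males Serpina3g differed by 1.08, Serpina3f by 1.21, Serpina3i by 0.93 and Serpina11 by 0.29 on the log2 scale, all called. In females the same 4 genes differed by 1.01, 1.23, 1.22 and 0.52, all called, and Serpina1f was called in both sexes. Serpina1b and Serpina1d, which have no match, also rose in Y665F females, by 0.54 and 0.50. The Serpina11 call in males was lost when WT replicate 1, 2, 4 or 5 or Y665F replicate 5 was left out (0.24 to 0.28) as well as with total-count scaling (0.23, adjusted p = 0.0609), thinning or the covariate. A match is a run of letters and does not show that STAT5B was bound there, and Serpina6, which rose most of the 10 members, was not searched. The stretches of Serpina3g, Serpina3f and Serpina3i are alike on both sides of the match, so their matches need not be independent. Serpina3f and Serpina11 each had 2 windows, and in the other window the match began at −210 and −65.

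Of the 15 other clade A serpins with a row, 11 were tested. In Y665F males 5 rose and 3 fell, and in Y665F females 6 rose, where 52.5% and 41.0% of all tested genes were called. Serpina10, the protein Z-dependent inhibitor of factor Xa, rose by 0.66 and 0.51 on the log2 scale. Serpina3h rose in females (1.41, adjusted p = 0.00169) and was not called in males (0.31). Serpina3c (−1.03, adjusted p = 0.00573) and Serpina9 (−1.11, adjusted p = 0.0370) were called lower in males, with means of 0.106 and 0.952 CPM in Y665F against 0.216 and 2.04 in WT. The call of Serpina3c was lost with the replicate number as a block (−0.78, adjusted p = 0.0598). That of Serpina9 was lost in the same fit, with DESeq2, thinning or the covariate (−0.13, adjusted p = 0.891), and when WT replicate 2, 3 or 4 or Y665F replicate 3, 5, 6, 7 or 9 was left out (−0.98 to −1.11). Serpina1c fell in males (−0.98, adjusted p = 8.75e-13) and was not called in females (−0.10, adjusted p = 0.368). Serpina1f had 115 counts over the Y665F males and 1 over the WT males, a CPM ratio of 70.1 (95% interval 12.3 to 2792 for counting error only), and 151 against 1 in females, a ratio of 171 (30.2 to 6794). In Y665H, Serpina7, thyroxine-binding globulin, rose by 1.06 in males (adjusted p = 0.0404) and 1.56 in females (adjusted p = 0.00402). The male call of Serpina7 was lost without the 3 libraries of high Saa1, although the difference was then larger (1.36, adjusted p = 0.0553). It was also lost when any 1 WT male or Y665H replicate 1, 3 or 4 was left out (0.76 to 1.12), and with the covariate or the replicate block. Serpina12, vaspin, fell in Y665H females (−1.81, adjusted p = 0.0158), but was not called with limma-voom (adjusted p = 0.0715) or with only the groups compared in the fit (adjusted p = 0.0854). It was −2.57 without Y665H replicate 4.

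Of 16 tested proteases, 9 rose and 3 fell in Y665F males and 8 rose and 4 fell in Y665F females, where 52.5% and 41.0% of all tested genes were called. Gzmb, granzyme B, the target of Serpina3n, rose by 3.71 in males and 2.04 in females. Prtn3, proteinase 3 of neutrophils, rose by 6.40 in males, and by 2.91 without the 3 libraries of high Saa1. Prss8, prostasin, was lower in both sexes (−0.61 and −1.36). Of 15 serpins of other clades, 7 rose and 2 fell in Y665F males, while 1 rose and 6 fell in females. Serpine2, protease nexin 1, was lower in both (−3.89 and −1.70), and Serpinc1, antithrombin, was higher in both (0.25 and 0.28). Of 22 genes of folding and secretion in the endoplasmic reticulum, through which secreted serpins pass, 6 rose and 3 fell in Y665F males and 3 rose and 1 fell in females. Of 11 genes next to the array, 6 rose and 3 fell in Y665F males and 3 rose and 2 fell in females.

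Signalling genes and liver transcription factors were also measured. Of all tested genes, 27.2% were called higher and 25.3% lower in Y665F males, and 17.8% and 23.3% in Y665F females. Of 13 genes of growth hormone and STAT5 signalling, 9 rose and 1 fell in Y665F males and 3 rose in Y665F females. In Y665H 1 fell in males and 2 fell in females, where 8.40% and 7.50% of all tested genes were called. Of 14 genes of IL-6 and STAT3 signalling, 5 rose and 3 fell in Y665F males and 2 rose and 3 fell in Y665F females. Stat3, the factor that drives acute-phase genes such as Serpina3n, rose by 0.56 in males and 0.39 in females with Y665F and by 0.42 in males with Y665H. Without the 3 libraries of high Saa1 the Y665H male difference of Stat3 was 0.20 (adjusted p = 0.481), and it was not called either when Y665H replicate 2 or 3 or WT replicate 4 or 5 alone was left out (0.33 to 0.38) or with the replicate block. Of 16 liver transcription factors, 3 fell in Y665F males, and 1 rose and 5 fell in Y665F females.

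The genes whose pattern over the 6 group means came nearest to a member's were found by root mean square distance on the centred log2 CPM scale among 12116 genes. For Serpina4-ps1, whose means spanned 9.34, they were Mup12 (0.99), Elovl3 (1.04) and Cyp2d9 (1.19). For Serpina6, spanning 6.41, they were Cacna1h (0.56), Snai3 (0.67) and Rap1gap2 (0.71), and for Serpina1e, spanning 4.62, Cib3 (0.74), Selenbp2 (0.76) and Lama3 (0.83). Serpina3k, spanning 2.27, was nearest to Ces3b (0.12), Pdilt (0.20) and Ccdc151 (0.21). Serpina3g, spanning 1.36, was nearest to Zfp334 (0.089), Bbs7 (0.095) and Hmox1 (0.098). With 6 group means, such likeness is a description of these libraries.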

How the data were processed

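Total RNA from frozen liver was depleted of ribosomal RNA and sequenced as read pairs, per the labels' protocols. The labels name a stranded TruSeq kit and New England Biolabs protocols without saying which libraries used which. Per the submitters' processing notes, the authors used FastQC 0.11.9, Trimmomatic 0.36, STAR, SAMtools 1.9, Picard 2.9.2, HTSeq 0.9.1 and mm10. The annotation and the strand setting are not given in the sources used here, so reads of overlapping genes may not be told apart. The deposited files hold raw counts per gene, and 5 rows naming no gene were left out of library sizes. No 2 libraries of a group had counts within sampling noise.

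All 37 libraries were fitted together by group with edgeR 4.0.16 in R 4.3.3, with TMM scaling, filterByExpr (minimum count 10, minimum total 15) and Benjamini-Hochberg adjustment within each comparison. Genes tested numbered 15152, and 9269 fell below the filter. The script was tested on simulated counts. limma 3.58.1 and DESeq2 1.42.0 gave alternatives. Other alternatives changed the scaling, filter, depth, libraries and covariates. Leaving out the 3 libraries with high Saa1 was added after seeing the data. The text names all 10 members, called clade A serpins, at most 2 genes per direction of each other list, and the 3 genes nearest in pattern. Members and lists were chosen with earlier results of these data known. Sequences came from RefSeq GRCm38.p6 and GENCODE M21, aligned with MAFFT 7.526. mm10 and GRCm38 have the same coordinates.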

Additional observations from a re-analysis of the deposited data

Results flagged for a closer look

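In 60 groups of libraries (10 genes in 6 groups), 6 held a library far from the rest by Dixon's criterion, and chance alone flags about 1 in 20. Y665F male replicate 2, the library with high Saa1, accounts for 4 of them. It had 1411 CPM of Serpina1e and 459 CPM of Serpina3m, above the other 8 Y665F males. It also had 599 CPM of Serpina3n, above the others, and 2222 CPM of Serpina1d, below them. Serpina1b was at 3332 CPM in WT male replicate 5, below the other WT males. Serpina4-ps1 was at 11.7 CPM in Y665H female replicate 4, above the other Y665H females.

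The Y665F effect differed between the sexes, by edgeR's test of that difference, for Serpina1a (−0.30), Serpina1b (−0.43), Serpina1d (−0.33), Serpina1e (−3.11) and Serpina3m (1.22), as male minus female on the log2 scale. With the share of counts naming no gene as a covariate Serpina1a was not called (−0.24, adjusted p = 0.119).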

How the results depend on the processing

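Most results kept their side of the threshold, and their direction where called. With 1 library left out, 2547 of 2629 values did so, 65 lost a call, 17 gained one and 0 reversed. Under the other alternatives 1769 of 1847 did so, 50 lost a call, 27 gained one and 1 reversed. Of all 4476 values, 128 changed sign while uncalled in both fits. Without the 3 libraries with high Saa1, the sex difference of Serpina3n in Y665H was −0.50 (adjusted p = 0.00823) in place of 0.07, and 0 members were called in Y665H males, with 1 at an unadjusted p under 0.05. In Y665H females DESeq2 called 2 members and the fit of only the groups compared called 0, with 2 at an unadjusted p under 0.05. The share of all tested genes called was 7.50% in the main fit and is not given here for these fits. With the share of counts naming no gene as a covariate, 2 members differed by sex in WT and 3 in Y665H. Without it 8 and 6 did, where 49.7% and 30.9% of all tested genes did. The shares of all tested genes with it are not given here. For the sex difference in the Y665H effect, DESeq2, this covariate and scaling by total count each called 1. Leaving out 1 library gave 0 to 1 members called in Y665H males, 0 to 2 in Y665H females and 0 to 1 for that sex difference. Beyond fewer libraries, the cause was not tested.

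Scaling by total count moved the median of all genes to −0.15 in Y665F females, where 1727 of 7856 called genes were then higher against 2695 of 6219 with TMM. It moved that median to 0.21 for the sex difference in Y665F, with 6872 of 8102 called genes higher against 3457 of 6526. In the sex difference of WT, 4865 of 7399 were higher against 3480 of 7537. No member's call changed in Y665F females, while Serpina1a and Serpina3n, uncalled with either scaling, turned negative.

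Replicate numbers do not pair the libraries: same-numbered libraries had correlations of −0.23 to 0.17, over 0.1 in 6 of 80 pairs. With a replicate block, 8 members were called in Y665F males and 7 in Y665F females. The same numbers were called without it, where 52.5% and 41.0% of all tested genes were called.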
